A study of Mus musculus with 4 samples.

Results

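The bone morphogenetic protein (BMP) genes Bmp2, Bmp4 and Bmp7, the receptor genes Bmpr1a and Bmpr2, the inhibitory SMAD gene Smad6 and the inhibitor of DNA binding genes Id1, Id2, Id3 and Id4 were examined in mouse mammary tumour cells labelled Pak1 -/- and Pak1 +/+. They were found as the non-control probes whose gene name on the array is 1 of these symbols, which gave 11 probes for the 10 genes among 39429 probes in all. Bmp4 had 2 probes and each of the other genes had 1. The brightest probe stood for its gene. Smad6 (2.98-fold), Id1 (1.81-fold), Bmpr1a (1.52-fold) and Bmpr2 (1.44-fold) were higher in the samples labelled Pak1 -/-. Id2 (1.52-fold), Id3 (1.91-fold) and Id4 (at least 10.37-fold between group means) were lower there.

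In 4 samples, total RNA labelled with Cy3 was hybridized to single-colour Agilent arrays of 60-base probes, with 2 samples labelled Pak1 -/- and 2 labelled Pak1 +/+. All were Her2-positive breast cancer cells that had been derived from MMTV-Neu mouse tumours. In these mice the mouse mammary tumour virus promoter drives the Neu oncogene (Her2, gene Erbb2) in mammary epithelium. Every sample was grown in low calcium medium with horse serum, deprived of serum for 3 h and then stimulated with EGF for 15 min, so that no group represents cells without EGF. Strain, age and sex of the mice were not given in the sources used here, and the methods call the cells tumour-derived cell lines. The design text speaks of separate tumours within a group, but no label ties a sample to a tumour, so the p-values measure only the spread between these samples.

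The arrays had median spot intensities of 322 to 331 over a median background of 39.0 to 42.0. Between 62.2% and 70.4% of their probes were well above background. Across probes, r was at least 0.9966 within a group and 0.9542 to 0.9593 between groups. The Pak1 probe did not check the genotype labels: it read 12.21 and 12.25 in normalized log2 intensity under the Pak1 -/- label and 12.04 and 12.04 under the Pak1 +/+ label (0.19, adjusted p = 0.070, limma, and 0.27, adjusted p = 0.0266, with cyclic loess), and whether it lies in the deleted part of the gene is not given in the sources used here. Erbb2 was bright in both groups, with 11.91 and 11.95 against 12.26 and 12.21 (-0.31, adjusted p = 0.0202, a call that held in 10 of 15 alternatives). On the shared slide, positions 1 and 2 held the Pak1 -/- label and positions 3 and 4 the Pak1 +/+ label, so position and genotype cannot be told apart. Of 27229 probes tested, 14132 differed between the groups at an adjusted p under 0.05 (51.9%), and 23.3% of the tested probes were higher and 28.6% lower under the Pak1 -/- label.

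BMPs are secreted ligands of the TGF-beta superfamily. They bind a complex of type I and type II serine/threonine kinase receptors, which phosphorylates receptor SMADs that then enter the nucleus with SMAD4. The ID genes are among the best known direct targets of these SMADs. ID proteins have a helix-loop-helix domain but no DNA-binding region, and they hold E proteins and their partners away from E-box sites. SMAD6 is an inhibitory SMAD that BMP signalling itself induces. In the mammary gland, ID2 is needed for alveolar development in pregnancy and ID4 is found in basal cells.

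Start regions of Smad6, Id2, Id3 and Id4 are printed because SMADs and E proteins are known to bind short DNA elements that can be looked for there. RefSeq windows of the GRCm38.p6 assembly, each 250 bases before to 50 after the start of the gene, were found for 7 of the 10 genes, Bmp4, Bmpr1a, Bmpr2, Smad6, Id2, Id3 and Id4. The first 270 bases are printed here, 5′ to 3′, with GGCGCC (the GC-rich SMAD1/5 element) and GTCTAGAC (the palindromic SMAD element) in capitals.
Smad6 (chr9:64022040-64022309, minus strand): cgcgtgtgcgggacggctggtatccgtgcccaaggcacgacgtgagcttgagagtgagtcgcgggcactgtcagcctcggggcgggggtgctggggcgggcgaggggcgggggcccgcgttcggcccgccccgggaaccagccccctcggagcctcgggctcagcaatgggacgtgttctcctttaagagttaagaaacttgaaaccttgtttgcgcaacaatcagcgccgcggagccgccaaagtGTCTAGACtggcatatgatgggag
Id2 (chr12:25096073-25096342, minus strand): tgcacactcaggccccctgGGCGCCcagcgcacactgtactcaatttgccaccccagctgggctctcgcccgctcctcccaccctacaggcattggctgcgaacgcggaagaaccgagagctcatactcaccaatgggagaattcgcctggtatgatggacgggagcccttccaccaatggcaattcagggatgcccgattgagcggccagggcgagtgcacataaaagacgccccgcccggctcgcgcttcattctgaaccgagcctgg
Id3 (chr4:136143572-136143841, plus strand): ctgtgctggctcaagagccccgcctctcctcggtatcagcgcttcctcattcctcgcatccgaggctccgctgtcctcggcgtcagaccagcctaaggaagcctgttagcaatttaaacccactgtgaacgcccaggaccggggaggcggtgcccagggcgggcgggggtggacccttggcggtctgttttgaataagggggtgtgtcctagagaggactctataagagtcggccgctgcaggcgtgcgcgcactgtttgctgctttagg
Id4 (chr13:48260866-48261135, plus strand): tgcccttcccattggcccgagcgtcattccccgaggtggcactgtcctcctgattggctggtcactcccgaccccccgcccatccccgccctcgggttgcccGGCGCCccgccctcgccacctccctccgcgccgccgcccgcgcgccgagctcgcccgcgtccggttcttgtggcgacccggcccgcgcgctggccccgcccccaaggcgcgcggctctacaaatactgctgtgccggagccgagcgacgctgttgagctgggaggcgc

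GGCGCC, searched on both strands and equal to its own reverse complement, occurred once in each of 4 windows, 198 bases before the start of Bmpr1a, 105 before Bmpr2, 231 before Id2 and 148 before Id4. It occurred in 11.9% of the 32851 windows of the same length. Of these 4 genes, Bmpr1a and Bmpr2 were higher and Id2 and Id4 lower under the Pak1 -/- label. Id4, well above background on the Pak1 +/+ arrays only, had to be lower once tested. A link between the motif and these differences was not tested. GTCTAGAC was found in Smad6 alone among the 7, beginning 4 bases before the start, and in 0.213% of all windows. The shorter element GTCT or its reverse complement, which GTCTAGAC holds on both strands, was counted 3 times in Id3, 2 times in Bmp4, 2 times in Smad6 and 1 time each in Bmpr1a and Id2. It was in 88% of all windows, and the E-box CANNTG in 72.3%. The E-box was counted 3 times in Bmp4 and 1 time each in Smad6 and Id2, and was not in the windows of Bmpr1a, Bmpr2, Id3 or Id4. These are matches of letters, not sites measured in the cells.

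Levels below are normalized log2 intensities, made by normexp background correction with an offset of 50 and quantile normalization. Differences are Pak1 -/- minus Pak1 +/+ from limma, with the standard error (SE) and a Benjamini-Hochberg adjusted p over all probes tested. A probe is called dim on an array where the scanner software did not mark it well above background, and a probe dim on over 2 of the 4 arrays was not tested. The files give probe positions on mm9 (NCBI37). The levels of different probes are not compared, since each binds its target with its own strength. In these bulk samples, fewer cells of a type and less RNA per cell cannot be told apart.

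The BMP ligands were dim or moderate in signal, and neither of the 2 tested passed in limma (unadjusted p = 0.186 for Bmp4 and 0.766 for Bmp7). The Bmp2 probe (chr2:133388260-133388319) read 6.51 and 6.69 under the Pak1 -/- label and 6.35 and 6.44 under the Pak1 +/+ label. It was dim on all 4 arrays and was not tested. The brighter Bmp4 probe (chr14:47003391-47003450) read 7.16 and 7.27 against 7.07 and 7.12 and was well above background on 3 arrays. Its groups were ordered without overlap, but they differed by 0.12 (SE 0.08, 95% interval -0.08 to 0.32, adjusted p = 0.254). The second Bmp4 probe (chr14:47003198-47003257), with 6.12 and 6.05 against 5.95 and 6.0, was dim throughout and was not tested. The Bmp7 probe (chr2:172695203-172695262) was well above background on all 4 arrays and read 8.16 and 8.48 against 8.41 and 8.31. These groups overlapped, both Pak1 +/+ values lying between the Pak1 -/- values. The difference was -0.04 (SE 0.13, 95% interval -0.38 to 0.30, adjusted p = 0.813), and its sign changed with the processing.

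Both BMP receptors were higher on the arrays labelled Pak1 -/-. Bmpr1a encodes a type I receptor, the subunit whose kinase phosphorylates receptor SMADs. Its probe (chr14:35224339-35224398) read 13.05 and 12.94 against 12.33 and 12.44. The groups did not overlap and stood 0.61 apart (SE 0.08, adjusted p = 0.00461), with means of 12.99 ± 0.08 and 12.39 ± 0.08 (SD, n = 2 each). Bmpr2 encodes the type II receptor that activates the type I subunit. Its probe (chr1:59927276-59927335) read 12.36 and 12.10 against 11.62 and 11.79. Again the groups were apart, with means of 12.23 ± 0.18 and 11.70 ± 0.12 (SD, n = 2 each), and the difference was 0.52 (SE 0.12, adjusted p = 0.0218). The Bmpr2 call rested on single arrays: it was lost without Pak1 -/- replicate 1 (0.39, adjusted p = 0.0715) and without Pak1 +/+ replicate 1 (0.44, adjusted p = 0.0847). Over all alternatives its adjusted p lay between 0.0137 and 0.0847. The fitted 95% intervals of the 2 receptors, 0.39 to 0.83 for Bmpr1a and 0.20 to 0.84 for Bmpr2, overlapped, and the difference between them was not tested.

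Smad6 had the largest rise of the 10 genes. Its product competes with receptor SMADs for activated type I receptors and with SMAD4 for activated SMAD1. The Smad6 probe (chr9:63800980-63801039) read 10.38 and 10.28 under the Pak1 -/- label and 8.63 and 8.88 under the Pak1 +/+ label, with spot intensities of 1307 and 1264 against 386 and 439 before correction. Both Pak1 -/- values lay far above both Pak1 +/+ values. The means were 10.33 ± 0.07 and 8.75 ± 0.18 (SD, n = 2 each), a difference of 1.58 (SE 0.11, 95% interval 1.28 to 1.87, adjusted p = 0.000764). It passed in all 15 alternatives, at 1.45 to 1.82. Of all probes tested, 94.4% had a smaller change in either direction.

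**Figure D1:**
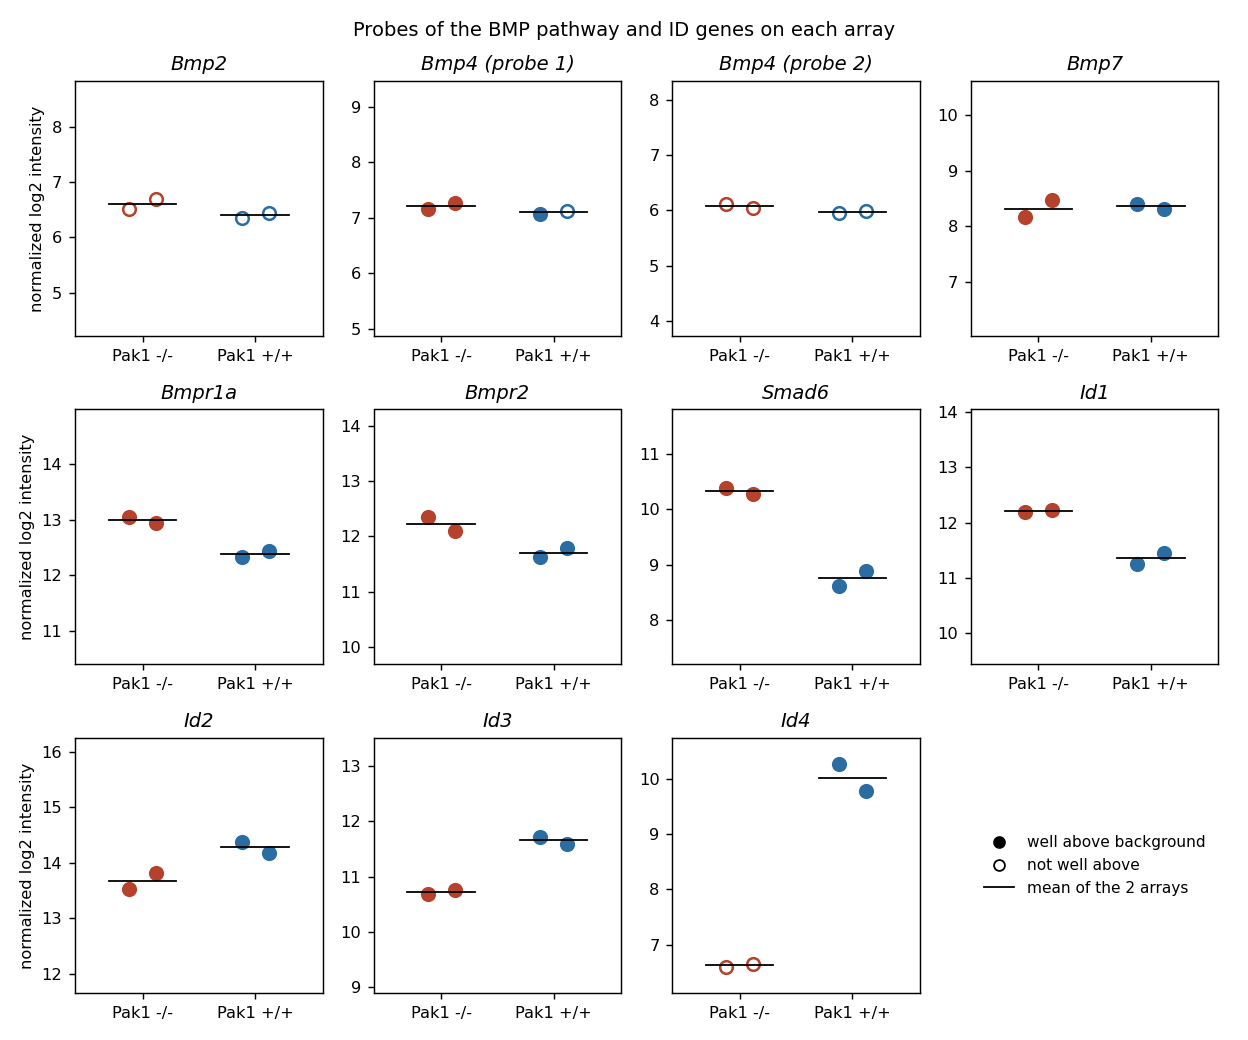
Normalized log2 intensity (vertical axes, each spanning the same number of log2 units) of the 11 probes on the 2 arrays labelled Pak1 -/- (red) and the 2 labelled Pak1 +/+ (blue), with lines at the group means and open circles for spots not well above background. Smad6, Id1, Bmpr1a and Bmpr2 stood higher in Pak1 -/-, Id2, Id3 and Id4 stood lower, and Id4 was not well above background on either Pak1 -/- array.

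The ID genes passed the test in opposite directions, Id1 higher and Id2 and Id3 lower under the Pak1 -/- label. Id4 was lower too, but it was well above background on the Pak1 +/+ arrays only and had to differ once it entered the test. The Id1 probe (chr2:152563083-152563142) read 12.19 and 12.22 under the Pak1 -/- label and 11.26 and 11.45 under the Pak1 +/+ label. The Pak1 -/- values nearly coincided, well above the others, with means of 12.21 ± 0.02 and 11.36 ± 0.14 (SD, n = 2 each). Id1 thus differed by 0.85 (SE 0.09, 95% interval 0.61 to 1.10, adjusted p = 0.00231). Id1 is the ID family member most often used as a readout of BMP receptor activity.

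Id2 moved the other way and was the least certain of the ID calls. Its probe (chr12:25778904-25778963) read 13.53 and 13.81 against 14.38 and 14.18, so that it was bright on every array and the groups were apart. The means were 13.67 ± 0.20 and 14.28 ± 0.14 (SD, n = 2 each), and the difference was -0.61 (SE 0.13, 95% interval -0.95 to -0.26, adjusted p = 0.0176). The call was lost without Pak1 -/- replicate 1 (-0.47, adjusted p = 0.0636) and without Pak1 +/+ replicate 1 (-0.51, adjusted p = 0.0660). Over all alternatives its adjusted p lay between 0.0117 and 0.0660.

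The Id3 probe is shown because it covers more of the genome than its own length. Its 60 bases span 175 bases (chr4:135700075-135700249, plus strand), so 115 bases of that stretch are not in the probe. The annotation of that stretch was not analysed here.
Id3 probe: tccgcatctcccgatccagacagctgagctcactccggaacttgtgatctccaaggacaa

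Id3 read 10.69 and 10.75 under the Pak1 -/- label and 11.72 and 11.59 under the Pak1 +/+ label. The replicates lay close together and the groups did not overlap, with means of 10.72 ± 0.05 and 11.65 ± 0.09 (SD, n = 2 each). The difference was -0.93 (SE 0.08, 95% interval -1.15 to -0.72, adjusted p = 0.00128).

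Id4 had the largest difference of the 10 genes. Its probe (chr13:48358668-48358727) read 6.60 and 6.66 under the Pak1 -/- label and 10.27 and 9.77 under the Pak1 +/+ label. The spot intensities before correction were 81.1 and 86.0 against 1242 and 820, over a local background of 37 to 41. The probe was well above background on the Pak1 +/+ arrays only, so its Pak1 -/- level is a bound. Between group means, Id4 was at least 10.37-fold lower under the Pak1 -/- label. That bound is the Pak1 +/+ mean against the lowest signal among probes well above background on each Pak1 -/- array, or the probe's own signal where that was higher. The measured means were 6.63 ± 0.04 and 10.02 ± 0.35 (SD, n = 2 each), and the fitted difference was -3.39 (SE 0.18, adjusted p = 0.000357). The size depended on the background correction, being -3.95 with an offset of 16 and -4.97 with the processed signal of the scanner software. Id4 entered the test through the Pak1 +/+ arrays alone, so it had to differ, and 2 genes were lower (Id2 and Id3) where a probe had to be well above background on all 4 arrays.

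**Figure D2:**
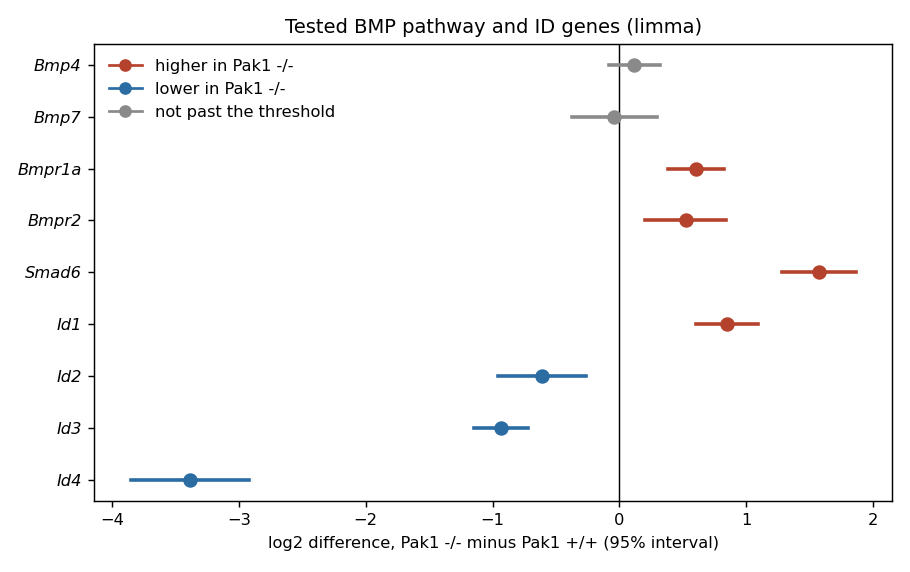
Log2 difference, Pak1 -/- minus Pak1 +/+ (horizontal axis), of the 9 genes tested, with points at the limma estimate and bars at the 95% interval. The intervals of Bmp4 and Bmp7 span 0, those of Bmpr1a, Bmpr2, Smad6 and Id1 lie above it and those of Id2, Id3 and Id4 below it. Id4 entered the test through the Pak1 +/+ arrays alone, so it had to differ, and its Pak1 -/- level is a bound.

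Of the 10 genes, 9 were tested, 4 were higher, 3 lower and 2 did not pass, beside 23.3% of all tested probes higher and 28.6% lower. At least 2-fold, 1 was higher (Smad6) and 1 lower (Id4), beside 6.94% and 5.6% of all tested probes. Id4 had to differ once it passed the filter, and without it 0 genes were 2-fold lower and 2 lower at any size. For 8 of the 9 the group ranges were separate, beside separate ranges in 78.2% of all probes tested with a value on every array. The median difference was 0.12 over the 9 genes and -0.05 over all probes tested, and the median size without sign was 0.61 against 0.33. The 8 separate ranges and both medians of the 9 genes include Id4, whose direction was fixed once it passed the filter. With 2 samples a group, an exact permutation test cannot go below p = 0.333, so no gene was tested that way.

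Among 56 other genes of the pathway, taken from a written list, 41 were tested, of which 13 were higher, 6 lower and 22 not past the threshold. The background for these counts, and for the counts by role that follow, is the same 23.3% and 28.6%. The count of higher genes was 8 without Pak1 +/+ replicate 1, and that of lower genes 3 without Pak1 +/+ replicate 2. Genes of this list with a change of under 2-fold or below background, other than the E proteins, were chosen for naming after their values were seen.

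Among the other 11 ligands, 7 were tested and 3 were higher, beside 23.3% of all tested probes. Gdf5, a growth and differentiation factor that signals through BMP type I receptors, read 12.27 and 12.28 under the Pak1 -/- label and 7.77 and 7.80 under the Pak1 +/+ label. The groups were far apart, at 4.49 (SE 0.07, adjusted p = 4.17e-05), and a second Gdf5 probe gave 1.94, so that the mean of its probes gave 3.22. Gdf7, a close relative of Gdf5, read 9.43 and 9.5 against 7.58 and 7.27, a difference of 2.04 (SE 0.12, adjusted p = 0.000513) that became 2.82 with the processed signal, while its second probe was dim throughout. Bmp8a was at 0.36 (adjusted p = 0.0491), a call that held in 4 of 15 alternatives. Bmp8a has a near-identical neighbour in Bmp8b, so its probe may read both.

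All 4 other receptor genes tested passed the threshold, 3 higher and 1 lower, beside 51.9% of all tested probes in either direction. Acvr1, a type I receptor for BMPs, read 14.63 and 14.31 against 13.24 and 13.35, a difference of 1.17 (SE 0.13, adjusted p = 0.00244), and its second probe gave 0.86. Acvrl1, a type I receptor known from endothelial cells, read 10.42 and 10.25 against 9.05 and 8.89, a difference of 1.37 (SE 0.10, adjusted p = 0.000873). With Bmpr1a, the 3 type I receptor genes tested were higher under the Pak1 -/- label, beside 23.3% of all tested probes. The type II receptors were split. Acvr2a was higher by 0.31 (adjusted p = 0.0177; a second probe, at 0.27, did not pass), whereas Acvr2b read 12.08 and 12.06 against 13.40 and 13.34, a difference of -1.30 (SE 0.07, adjusted p = 0.000393). Both Bmpr1b probes were dim throughout. Of 5 co-receptors, Neo1 was higher by 0.46 (adjusted p = 0.0138) and Rgmb lower, at -0.36 (adjusted p = 0.0184).

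Extracellular antagonists bind BMPs or related ligands outside the cell. Of 17, 9 were tested, with 4 higher and 1 lower, beside 23.3% and 28.6% of all tested probes. Fstl3, which binds activin and some BMPs, read 13.15 and 13.05 against 10.39 and 9.75, a difference of 3.03 (SE 0.23, adjusted p = 0.000873). Nbl1, a DAN family antagonist, read 11.54 and 11.38 against 9.48 and 9.5, a difference of 1.97 (SE 0.08, adjusted p = 0.000225). Crim1, a transmembrane protein with chordin-like repeats, read 10.81 and 10.82 against 9.09 and 9.08, a difference of 1.73 (SE 0.07, adjusted p = 0.000176). All 3 groups of values were apart. Dand5 was higher by 0.41 (adjusted p = 0.0475) and Bmper lower, at -0.94 (adjusted p = 0.00202). Probes of Grem1, Bambi, Chrdl2, Sost and Cer1 were dim throughout.

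The signalling SMADs differed little beside Smad6. Smad4 was lower, at -0.30 (adjusted p = 0.0282), and its second probe, at -0.22, did not pass (adjusted p = 0.0629). Smad1 (-0.10, adjusted p = 0.341) and Smad5 (0.27, adjusted p = 0.0568) did not pass, and Smad9 was dim throughout. The second probes of Smad1 (0.04, adjusted p = 0.696) and Smad5 (-0.008, adjusted p = 0.928) did not pass either. Of 5 intracellular inhibitors, Ski was higher by 0.43 (adjusted p = 0.00863), while Smad7, the other inhibitory SMAD, stood at 0.12 (SE 0.14, adjusted p = 0.527). Of 6 further target genes, none was higher in limma (0 also at an unadjusted p under 0.05), and Hey1 (-0.64, adjusted p = 0.0232) and Msx1 (-0.84, adjusted p = 0.0012) were lower.

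The E proteins, which ID proteins bind, were well above background on every array. Tcf3 (E2A) averaged 13.41 under the Pak1 -/- label and 13.35 under the Pak1 +/+ label, a difference of 0.06 (SE 0.09, adjusted p = 0.608), and its second probe gave -0.08 (adjusted p = 0.606). Tcf12 (HEB) averaged 11.95 and 11.83, a difference of 0.12 (SE 0.09, adjusted p = 0.303), and its second probe, at 0.44 (SE 0.16, adjusted p = 0.0797), did not pass either. Tcf4 (E2-2) averaged 12.58 and 12.12 and was higher by 0.45 (SE 0.12, adjusted p = 0.0338). Its second probe, at 0.24, did not pass. Of the alternatives run, 1 asks for at least a 2-fold change, which every call under 2-fold fails by definition. Counting it, the call held in 7 of 15 for Smad4 and for Dand5, 8 of 15 for Tcf4, 9 of 15 for Acvr2a, 9 of 14 for Rgmb, 12 of 15 for Neo1 and for Hey1, 13 of 15 for Ski and 14 of 15 for Bmper and for Msx1. The 8 called genes with at least a 2-fold change passed in all 15.

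**Figure D3:**
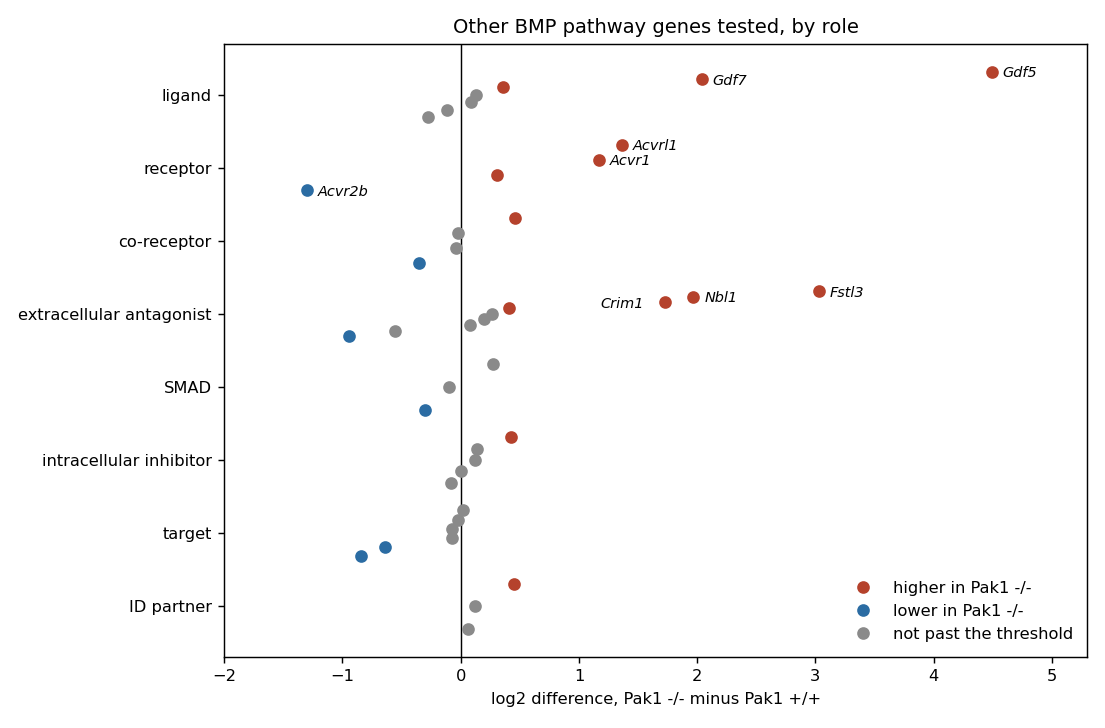
Log2 difference, Pak1 -/- minus Pak1 +/+ (horizontal axis), of the 41 other pathway genes tested, 1 point a gene by its brightest probe, in rows by role and coloured by call. Genes past the threshold with at least a 2-fold change are named; Gdf5 (4.49), Fstl3 (3.03) and Gdf7 (2.04) lie farthest to the right and Acvr2b (-1.30) farthest to the left.

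Marker genes of cell types moved with the labels too. The summed normalized intensity of 5 basal epithelial markers (Krt5, Krt14, Krt17, Trp63, Acta2) was 86600 to 94600 on the arrays labelled Pak1 -/- and 18800 to 19300 on the others, and all 5 were higher. Of 5 luminal markers (Krt8, Krt18, Krt19, Epcam, Cdh1), 3 were higher and none lower in limma (Epcam, at -0.23, had an unadjusted p of 0.031, and Krt19 stood at -0.64, adjusted p = 0.172). Their sums, 932000 to 946000 against 719000 to 723000, are made up mostly of the very bright Krt8 and Krt18. The part of these shifts in the values of the BMP and ID genes was not tested. Beside these counts, as beside those that follow, 23.3% of all tested probes were higher and 28.6% lower. Of 5 endothelial markers none of the 3 tested passed in limma (0 also at an unadjusted p under 0.05), at sums of 10000 to 10400 against 9060 to 10900, with Tek and Emcn dim on every array and Kdr between 12.99 and 13.27 (a dimmer Kdr probe, well above background on the Pak1 -/- arrays only and so bound to differ, was at least 2.17-fold higher there). Of 7 fibroblast markers 1 was higher (Col1a1), at sums of 1300 to 1450 against 1070 to 1140, with Col3a1, Pdgfrb, Dcn and Lum dim on every array. Of 5 leukocyte markers 1 was lower (Ptprc, between 7.14 and 7.60 on all arrays, while Cd3e lay between 11.34 and 11.70), at sums of 5520 to 5820 against 4670 to 5560.

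**Figure D4:**
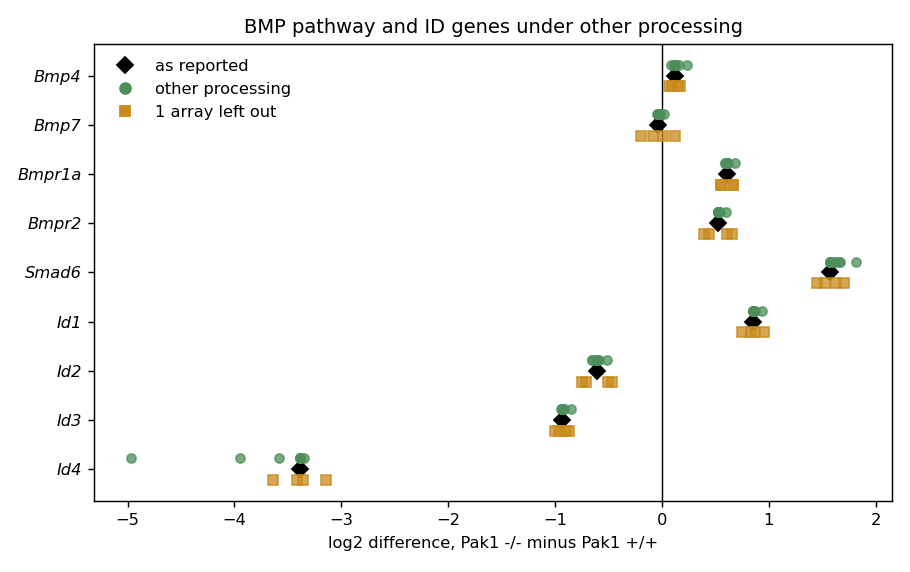
Log2 difference, Pak1 -/- minus Pak1 +/+ (horizontal axis), of the 9 genes as reported (diamonds), under other processing of all 4 arrays (circles) and with 1 array left out (squares). Smad6 stayed between 1.45 and 1.82 and Id3 between -0.997 and -0.851, Id4 ranged from -4.97 to -3.14, and Bmp7 lay on both sides of 0.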

How the data were processed

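The deposited array files contain linear intensities of each spot and its local background, with flags, read by Feature Extraction 9.5.3.1 and without scaling between arrays. A log2 table from the authors is described in the methods as normexp corrected and quantile normalized. It holds values in 24008 of 39485 rows and served as an alternative. Its column medians were all 10.37, the lowest r with the values used here was 0.9999 (across probes, which are not replicates), and the rule for its empty rows is not stated.

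Here, normexp with an offset of 50 was run on all spots in limma 3.58.1 (R 4.3.3), which understates changes of dim probes. Controls were dropped, log2 values quantile normalized, outlier spots set aside and 43020 spots averaged to 39429 probes. Probes needed to be well above background on 2 or more of the 4 arrays, which left 27229 (69.1%), and were compared with lmFit and eBayes, two-sided, genotype as the only term, Benjamini-Hochberg threshold 0.05. The 4 arrays lay on 1 slide, and their number limits the precision. The script was tested on simulated data. Names came from the array or, for 26055 of 32334 probes with a RefSeq accession, from GRCm38.p6. All 10 genes and every probe are named, of the other pathway genes those called with at least a 2-fold change and the E proteins by rule, and Pak1 and Erbb2 as checks. Further pathway genes under 2-fold were named after their values were seen. The genes and lists were chosen with earlier results of these data known. The place of probes in exons or UTRs was not analysed here.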

Additional observations from a re-analysis of the deposited data

How the results depend on the processing

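The 9 genes tested were recomputed under 15 alternatives, with 14 for Bmp4 and Id4, which were not tested where all 4 arrays had to be well above background. With at least a 2-fold change required, 1 of them was higher and 1 lower, and of the other pathway genes 7 were higher and 1 lower, among 3413 probes. At an adjusted p under 0.01, the other pathway genes counted 8 higher and 3 lower, among 8878 probes. Leaving out each array in turn gave 3 to 4 of the 10 genes higher and 2 to 3 lower, 8 to 11 other pathway genes higher and 3 to 7 lower, and 10314 to 12172 probes. Smad6 passed in all 15. Id4 passed in the 14 that tested it, but it passed the signal filter through the Pak1 +/+ arrays alone, so this says nothing about stability. Id1, Id3 and Bmpr1a missed under the 2-fold requirement alone, and Bmpr2 and Id2 also at 0.01 and without replicate 1 of either group. Bmp7, not past the threshold, changed sign to 0.020 with cyclic loess, 0.12 without Pak1 -/- replicate 1 and 0.0068 without Pak1 +/+ replicate 1 (-0.20 to 0.12 over the arrays left out), and Tcf3 to -0.012 as the mean of its probes and -0.014 without Pak1 +/+ replicate 2 (-0.014 to 0.13 over the arrays left out). The cause of these changes was not tested. With the replicate number as a block, 4 of the 10 genes were higher and 3 lower, 12 other pathway genes higher and 6 lower, and 13211 probes passed. The numbers did not pair the samples (r of same-numbered deviations -0.028). No alternative moved the median of all probes by over 0.1, but 52.4% of called probes were higher with cyclic loess against 44.9% as reported. The Bmp2 and dim Bmp4 probes, and Id4 on the arrays labelled Pak1 -/-, are limited by signal over background.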
